A study of Rattus norvegicus with 11 samples.

Results

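The endothelial transcription factors described here are 10 genes, Sox17, Sox18, Sox7, Erg, Fli1, Tal1, Gata2, Klf2, Klf4 and Meox2. They were taken by symbol from a table of 25275 genes measured in rat retroperitoneal white fat. Each symbol stood on 1 row of the table, and all 10 genes passed the filter on low counts, as did 12846 genes in all. RNA was sequenced from 11 female Wistar rats, 1 library per rat. All 11 rats had eaten a western diet for 6 weeks from 10 weeks of age, had then had their ovaries removed, and had received degarelix, which blocks the pituitary's receptor for gonadotropin-releasing hormone and so lowers luteinizing hormone and follicle-stimulating hormone (FSH). In 5 rats (degarelix plus FSH) an osmotic pump released 6 µg/kg of FSH each day, and in 6 rats (degarelix only) it held vehicle. The rats were held at their earlier body weight by limited feeding for 12 days, fed freely for 7 days, fasted for 4 h and killed at 19 weeks of age. No rats with ovaries or without degarelix were analysed here, so the comparison asks what FSH does where ovarian hormones are gone and the animal's own gonadotropins are suppressed.

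Endothelial cells line every vessel, and in white fat they form the dense capillary bed through which fatty acids reach fat cells. Their identity is held by a small set of transcription factors. The SoxF factors Sox7, Sox17 and Sox18 act in arterial and lymphatic specification, the ETS factors Erg and Fli1 keep endothelial genes such as cadherin 5 active, and Tal1 and Gata2 bind together at vascular and blood cell enhancers. Klf2 and Klf4 are switched on by laminar blood flow and restrain inflammation of the vessel wall. Meox2, a homeobox factor, is known from mice and human cells as a regulator of fatty acid transport in capillary endothelium and as a brake on vessel growth. None of these genes is restricted to endothelium: Fli1 and Klf2 are also active in leukocytes, Tal1 and Gata2 in blood cell precursors and mast cells, Gata2 in fat cell precursors and Klf4 in smooth muscle and epithelium.

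Total counts lay between 13163021 and 19837706 in the degarelix plus FSH libraries and between 16452117 and 23694602 in the degarelix only libraries. Values are CPM, counts scaled to a common library total after TMM scaling (edgeR's correction for composition), and changes are log2 of degarelix plus FSH over degarelix only with their standard error. A gene was called when its p-value in edgeR's quasi-likelihood test, adjusted by Benjamini-Hochberg over all 12846 genes, was below 0.05. The library of FSH rat 3 had the lowest total and lay farthest out on 1 side of the first principal component, which held 24.7% of the variance. The fat cell gene Adipoq, chosen after its values were seen, had 11371 ± 1806 CPM with FSH and 11154 ± 862 CPM without (SD, n = 5 and n = 6). Adipoq does not stand for all fat cell genes. Of 11 fat cell markers, 6 had a positive and 5 a negative log2 change, none of them past the threshold. Fabp4 (0.30) and Cfd (0.65), also chosen after their values were seen, were positive, while Lep (-0.62) and Pparg (-0.38) were negative.

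All 10 genes had a positive log2 change with FSH per library total, as did 51.6% of all genes, and 3 of them, Sox17, Sox18 and Gata2, passed the threshold as higher. Over all genes, 2.27% passed in either direction, 1.21% as higher and 1.07% as lower. The median log2 change of the 10 was 0.39, against 0.01 over all genes tested, and stayed between 0.34 and 0.44 with any 1 library left out. At an unadjusted p below 0.05, 8 of the 10 passed, Tal1 and Meox2 being the exceptions, where 22.6% of all genes did. Counted per endothelial marker RNA instead of per library, as set out further on, none of the 10 passed and Erg, Tal1 and Meox2 turned negative. On that scale 24.6% of all genes passed, nearly all of them lower, and 10.5% had a positive log2 change.

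**Figure D1:**
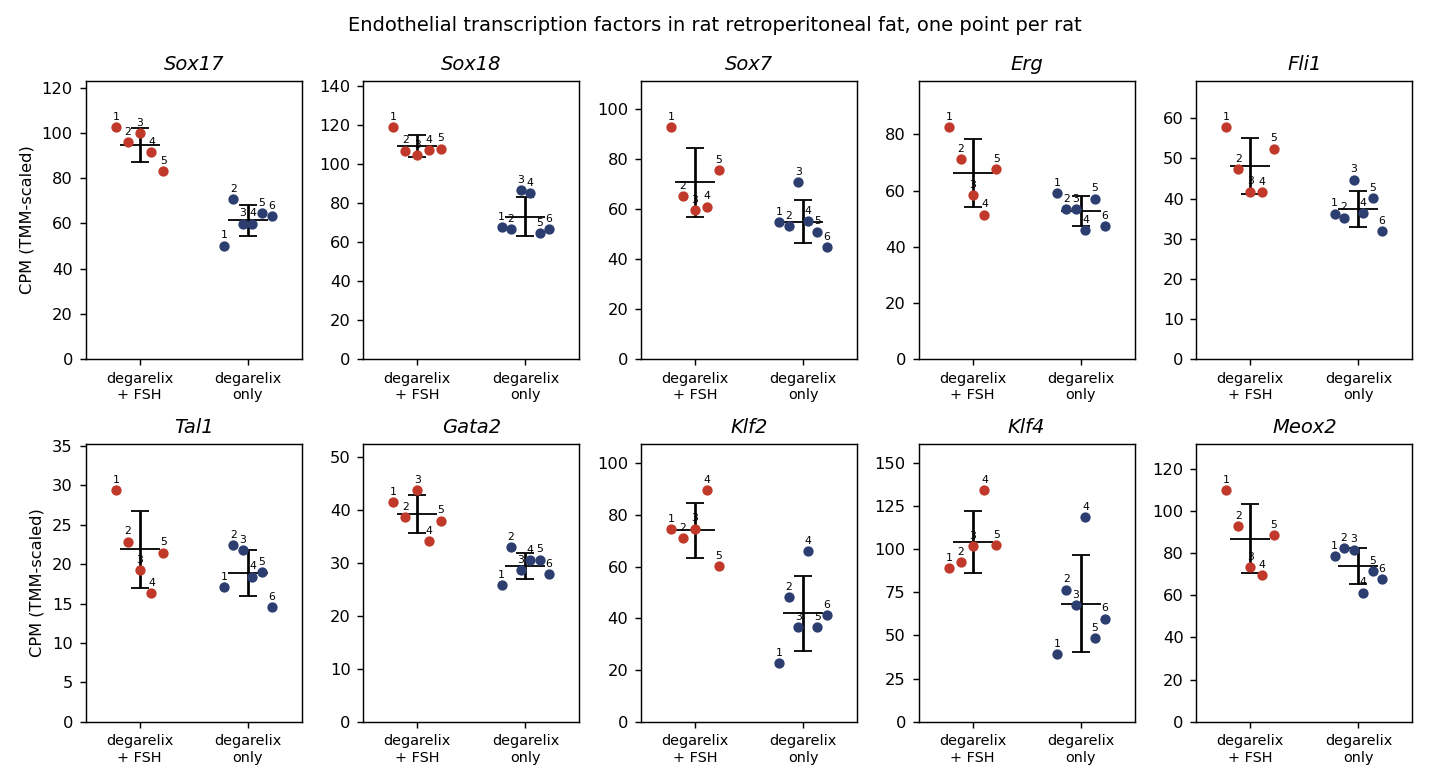
CPM (TMM-scaled, linear axis from 0) of the 10 endothelial transcription factors, with 1 numbered point per rat, degarelix plus FSH (red, n = 5) left of degarelix only (blue, n = 6), and bars for the mean ± SD. The groups do not overlap for Sox17, Sox18 and Gata2, and degarelix only rat 4 stands high for Klf2 and Klf4.

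Sox17, a SoxF factor of arterial endothelium, rose 1.54-fold with FSH. It had 102, 95.9, 99.7, 91.7 and 83.2 CPM in FSH rats 1 to 5, against a lowest value of 50.2, a median of 61.5 and a highest of 70.7 CPM in degarelix only rats. Every FSH rat lay above every degarelix only rat, which held for 2.54% of all genes (4.34% where separation in either direction is counted). The means were 94.6 ± 7.57 CPM with FSH and 61.4 ± 6.78 CPM without (SD, n = 5 and n = 6; log2 change 0.62 ± 0.08 SE, edgeR adjusted p = 0.00757). By p-value Sox17 stood at place 11 of 12846 genes. The adjusted p lay between 0.00893 and 0.0279 with any 1 library left out.

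Sox18, the SoxF factor best known from lymphatic development and vessel integrity, rose with FSH. It had 119, 107, 105, 107 and 108 CPM in FSH rats 1 to 5, the highest 1.14 times the lowest, which is the smallest such ratio among FSH rats for the 10 genes. The degarelix only rats had a lowest value of 64.8, a median of 67.3 and a highest of 86.7 CPM, and the groups did not overlap. Rats 3 and 4 of the degarelix only group stood above the other 4, at 86.7 and 85.3 CPM. The means were 109 ± 5.58 CPM with FSH and 73.0 ± 10.1 CPM without (SD, n = 5 and n = 6; log2 change 0.58 ± 0.09 SE, edgeR adjusted p = 0.0115). The adjusted p stayed between 0.0100 and 0.0379 with any 1 library left out.

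Sox7, the remaining SoxF factor, did not pass the threshold. It had 92.7, 65.2, 59.5, 61.0 and 75.7 CPM in FSH rats 1 to 5, and a lowest value of 44.8, a median of 53.9 and a highest of 70.7 CPM in degarelix only rats. FSH rats 1 and 5 lay above every degarelix only rat, while the other 3 lay inside the range of that group. The log2 change was 0.37 ± 0.13 SE (edgeR adjusted p = 0.136), with a 95% interval from 0.07 to 0.67. Whether the changes of Sox17 and Sox18 differ from that of Sox7 was not tested.

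Gata2, a zinc finger factor that in endothelium works with Tal1, rose 1.33-fold. It had 41.5, 38.7, 43.8, 34.2 and 38.0 CPM in FSH rats 1 to 5, against a lowest value of 25.8, a median of 29.7 and a highest of 32.9 CPM in degarelix only rats. The groups did not overlap, though FSH rat 4 and degarelix only rat 2 lay close together. The means were 39.2 ± 3.65 CPM with FSH and 29.4 ± 2.50 CPM without (SD, n = 5 and n = 6; log2 change 0.41 ± 0.08 SE, edgeR adjusted p = 0.0308). The call of Gata2 ended without any 1 of FSH rats 1, 2, 3 or 5 or degarelix only rats 1, 5 or 6 (adjusted p = 0.0546 to 0.0738), and also when all libraries were thinned to the smallest total (adjusted p = 0.0705).

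Promoter sequences from RefSeq (build GRCr8) were at hand for 5 of the 10 genes, Gata2, Erg, Tal1, Klf4 and Meox2. The pair shown was chosen because Gata2 is the called gene among the 5 and Erg is the ETS factor among them. Each is the 250 bases before the annotated start, 5′ to 3′ on the gene's strand, with the ETS core GGAA and the GATA box GATAA, on either strand, in capitals. The Gata2 stretch is chr4:122216031-122216280 on the plus strand and the Erg stretch is chr11:48251567-48251816 on the minus strand.
Gata2: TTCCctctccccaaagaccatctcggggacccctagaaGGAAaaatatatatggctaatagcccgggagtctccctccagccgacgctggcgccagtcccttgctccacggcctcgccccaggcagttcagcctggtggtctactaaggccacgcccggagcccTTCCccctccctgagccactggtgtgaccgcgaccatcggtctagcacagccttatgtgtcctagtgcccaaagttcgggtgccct
Erg: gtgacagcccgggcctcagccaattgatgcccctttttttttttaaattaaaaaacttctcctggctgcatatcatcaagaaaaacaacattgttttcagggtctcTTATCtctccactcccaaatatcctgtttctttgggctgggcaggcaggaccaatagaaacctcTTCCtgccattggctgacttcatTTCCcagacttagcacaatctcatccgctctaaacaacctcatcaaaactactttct
The Gata2 stretch holds 3 ETS cores and 0 GATA boxes, and the Erg stretch holds 2 ETS cores and 1 GATA box. Of 33465 rat promoter stretches of this length, 93.2% hold an ETS core and 23.5% a GATA box. A match describes letters and shows no binding.

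The ETS factors Erg and Fli1 had positive log2 changes without passing. Erg had 82.5, 71.3, 58.5, 51.5 and 67.6 CPM in FSH rats 1 to 5, and a lowest value of 45.8, a median of 53.4 and a highest of 59.0 CPM in degarelix only rats. FSH rats 1, 2 and 5 stood above all degarelix only rats and FSH rat 4 lay below their mean. The log2 change of Erg was 0.33 ± 0.11 SE (edgeR adjusted p = 0.121, 95% interval 0.08 to 0.59). Without FSH rat 4, where 563 genes passed in place of 292, Erg passed too (edgeR adjusted p = 0.0458). That was 1 of 21 alternatives, over which the adjusted p of Erg reached 0.248. Fli1, its close relative, had 57.7, 47.3, 41.7, 41.6 and 52.5 CPM in FSH rats 1 to 5. The degarelix only rats had a lowest Fli1 value of 31.8, a median of 36.3 and a highest of 44.7 CPM, and only rat 3 of that group reached into the FSH range. The log2 change of Fli1 was 0.37 ± 0.10 SE (edgeR adjusted p = 0.0818, 95% interval 0.13 to 0.60). DESeq2, which called 1135 genes, called Fli1 as well (adjusted p = 0.0251). That was also 1 of 21 alternatives, over which the adjusted p of Fli1 reached 0.215.

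Tal1, a basic helix-loop-helix factor of blood and vessel development, had the smallest log2 change of the 10. It had 29.4, 22.9, 19.2, 16.4 and 21.5 CPM in FSH rats 1 to 5, and a lowest value of 14.6, a median of 18.7 and a highest of 22.5 CPM in degarelix only rats. The groups overlapped widely, with FSH rat 1 high. The log2 change was 0.21 ± 0.15 SE (edgeR adjusted p = 0.413), with a 95% interval from -0.12 to 0.55. Meox2 had 110, 92.9, 73.5, 69.4 and 88.7 CPM in FSH rats 1 to 5, and a lowest value of 61.3, a median of 75.2 and a highest of 82.3 CPM in degarelix only rats. FSH rats 3 and 4 lay below the degarelix only mean of 73.9 CPM, and the other 3 lay above that whole group. The log2 change of Meox2 was 0.23 ± 0.12 SE (edgeR adjusted p = 0.269; 95% interval -0.04 to 0.51).

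Klf2, the flow-induced Krüppel-like factor, had the largest log2 change of the 10 per library total and also a wide spread between degarelix only rats. It had 74.6, 71.1, 74.7, 89.6 and 60.2 CPM in FSH rats 1 to 5, and a lowest value of 22.6, a median of 39.0 and a highest of 66.1 CPM in degarelix only rats. Of the degarelix only rats, rat 4 alone, at 66.1 CPM, reached into the FSH range, and the highest of the 6 was 2.93 times the lowest. The means were 74.0 ± 10.5 CPM with FSH and 42.0 ± 14.5 CPM without (SD, n = 5 and n = 6; log2 change 0.82 ± 0.21 SE, edgeR adjusted p = 0.0665; 95% interval 0.33 to 1.30). Klf2 passed without degarelix only rat 4 (adjusted p = 0.0199), with DESeq2 (0.00561) and with limma-voom using sample quality weights (0.0287), and its adjusted p over all alternatives reached 0.132.

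Klf4, which shares flow-induced targets with Klf2, varied between rats in much the same way. It had 88.8, 92.3, 102, 134 and 102 CPM in FSH rats 1 to 5, and a lowest value of 39.1, a median of 63.6 and a highest of 119 CPM in degarelix only rats. Rat 4 of the degarelix only group exceeded every FSH rat but FSH rat 4, and the other 5 lay below all FSH rats. The log2 change was 0.60 ± 0.24 SE (edgeR adjusted p = 0.172, 95% interval 0.06 to 1.15). Without degarelix only rat 4, where 533 genes passed in place of 292, Klf4 passed too (edgeR adjusted p = 0.0319, log2 change 0.83). That was 1 of 21 alternatives, over which the adjusted p of Klf4 reached 0.272.

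Bulk tissue RNA cannot tell a larger share of endothelial cells from more RNA of a gene per endothelial cell, so the level of endothelial RNA is given beside these changes. A list of 20 endothelial markers that holds none of the 10 genes had 18 members in the table, all 18 with a positive log2 change (median 0.29, or 0.20 with 17 positive without FSH rat 1). Of these, 3 passed as higher, where 1.21% of all genes did. The list does hold genes on which members act, such as cadherin 5 (Erg and Fli1) and S1pr1 (Klf2). A ratio to these markers is therefore not independent of the members. S1pr1, the endothelial sphingosine-1-phosphate receptor and a Klf2 target, had 185 ± 7.12 CPM with FSH and 128 ± 14.5 CPM without (log2 change 0.53, edgeR adjusted p = 0.00979). The co-receptor endoglin, Eng, had a log2 change of 0.42 (edgeR adjusted p = 0.0328) and the angiopoietin receptor Tek one of 0.44 (edgeR adjusted p = 0.0431). The call of S1pr1 stood with any 1 library left out, while those of Eng and Tek ended without any 1 of FSH rats 1, 2, 3 or 5 or degarelix only rats 1, 5 or 6, and that of Tek also without degarelix only rat 2 (adjusted p up to 0.0808 for Eng and 0.105 for Tek).

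Summed over the 18 markers, FSH rats 1 to 5 had 4437, 3681, 3315, 3020 and 3783 CPM, and degarelix only rats had a lowest sum of 2568, a median of 2839 and a highest of 3331 CPM. FSH rat 1 was the highest of all and degarelix only rat 3 reached above FSH rats 3 and 4. The means were 3647 ± 536 CPM with FSH and 2898 ± 259 CPM without (SD, n = 5 and n = 6), with a two-sided exact permutation p of 0.0152 over the 462 splits (0.0633 adjusted over 13 list sums, which does not pass). The part of endothelial RNA content in the members' changes was not tested.

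Relative to the summed endothelial marker counts of the same library, none of the 10 genes passed in edgeR's quasi-likelihood test, and at an unadjusted p below 0.05 there were 2, Sox17 and Sox18, where 45.3% of all genes passed that mark. On this scale 24.6% of all genes passed, nearly all of them lower, the median over all genes being -0.31. The 10 genes had a median of 0.06, with 7 positive and 3 negative, where 10.5% of all genes were positive. The groups overlapped for each of the 10, where 7.61% of all genes had groups apart. Sox17 had 26.3 ± 3.87 counts per 1000 marker counts with FSH and 21.3 ± 2.78 without (SD, n = 5 and n = 6; log2 change 0.30 ± 0.13 SE, edgeR adjusted p = 0.0798). Sox18 had 30.3 ± 3.40 with FSH and 25.2 ± 2.88 without, on the same scale (log2 change 0.27 ± 0.12 SE, edgeR adjusted p = 0.0900). Klf2 had a log2 change of 0.51 ± 0.24 SE (edgeR adjusted p = 0.111), and passed without degarelix only rat 4.

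On the scale of endothelial markers Klf4 had a log2 change of 0.32 ± 0.27 SE. The other 6 members lay between -0.13 and 0.09. Gata2 had a log2 change of 0.09 ± 0.11 SE, Sox7 of 0.04 ± 0.10, Fli1 of 0.04 ± 0.09 and Erg of -0.01 ± 0.11. Tal1 had a log2 change of -0.13 ± 0.11 SE and Meox2 of -0.11 ± 0.10. A log2 change near 0 here says that a gene kept about its ratio to the markers, with the interval that its error gives.

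**Figure D2:**
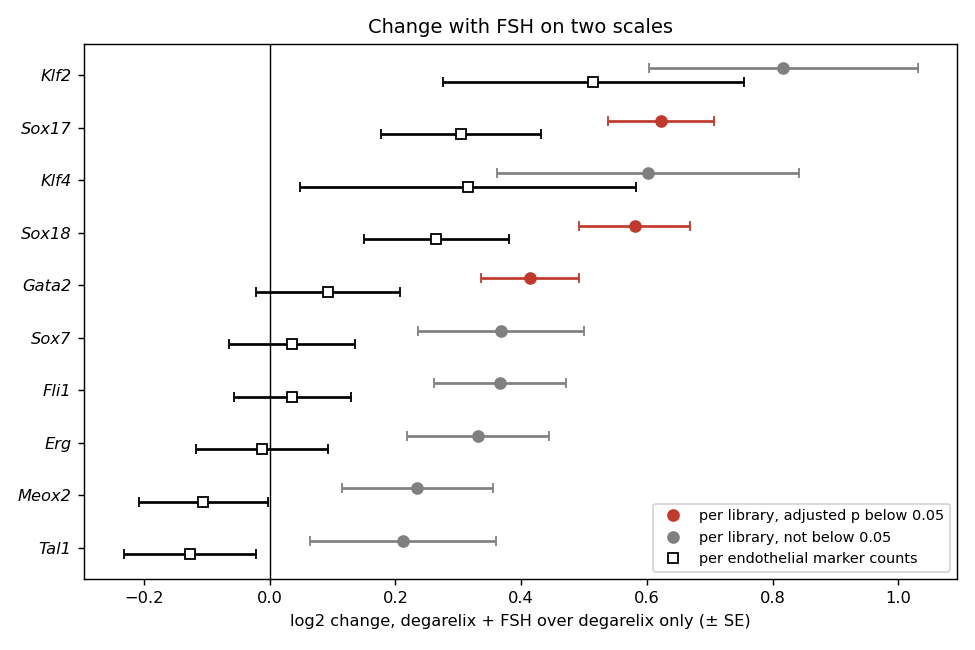
Log2 change (degarelix plus FSH over degarelix only, ± SE, n = 5 and n = 6) of each gene per library total (circles, red where the edgeR adjusted p is below 0.05) and per endothelial marker counts (open squares). Each gene lies further left per endothelial marker counts, where Erg, Tal1 and Meox2 are negative and Sox17 has 0.30 in place of 0.62. The median over all genes on that scale was -0.31.

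Between rats of the same treatment, the 10 genes did not vary as a block. After group means were removed from log2 CPM, Tal1 followed the summed endothelial markers with a Pearson's r of 0.95 over the 11 rats, Sox7 with 0.91, Fli1 with 0.90, Meox2 with 0.86 and Erg with 0.77. Sox18 had an r of 0.51 with the marker sum, Gata2 of 0.40 and Sox17 of 0.18. Klf2 and Klf4 had an r of -0.13 each. These are descriptions, and the values share each library's scaling and depth. FSH rat 1 had the highest marker sum, at 4437 CPM. It was also the highest FSH rat for 7 of the 10 genes, Tal1, Sox7, Fli1, Meox2 and Erg among them. The r with the marker sum was not computed without that rat.

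**Figure D3:**
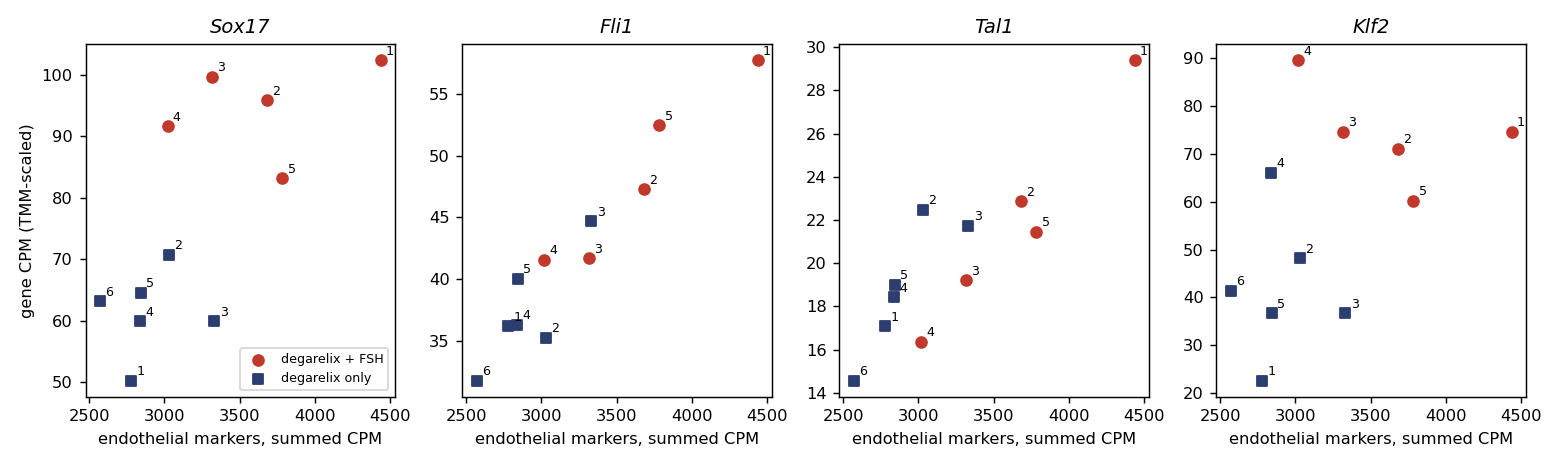
CPM of Sox17, Fli1, Tal1 and Klf2 (vertical axes, TMM-scaled, not starting at 0) against the summed CPM of 18 endothelial markers (horizontal axis) in each numbered rat, degarelix plus FSH as red circles (n = 5) and degarelix only as blue squares (n = 6). Fli1 and Tal1 climb with the marker sum across both groups, while for Sox17 the 2 groups lie apart in CPM. At marker sums of 3315 and 3331 CPM, Sox17 had 99.7 CPM in FSH rat 3 and 59.9 CPM in degarelix only rat 3. The gap was smaller at sums of 3020 and 3030 CPM, with 91.7 CPM in FSH rat 4 and 70.7 CPM in degarelix only rat 2. Per marker counts the groups overlap for Sox17.

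All 45 pairs of members were compared by Pearson's r and Spearman's rho of the same group-centred values over 11 rats, with permutation within groups. By Pearson's r 8 pairs passed after Benjamini-Hochberg adjustment, and 0 passed by Spearman's rho (lowest adjusted p = 0.0544) or, by Pearson's r, without the 2 rats farthest from the median, which leaves 9 rats. Sox7 and Fli1 were the closest pair (r = 0.92, permutation p = 0.00046, adjusted 0.0207; rho = 0.85, permutation p = 0.00446, adjusted 0.0544; r = 0.81 without FSH rat 1 and degarelix only rat 3). Erg and Meox2 had r = 0.91 (permutation p = 0.00168, adjusted 0.0252) and rho = 0.75 (permutation p = 0.0193, adjusted 0.108), with r = 0.81 without FSH rats 1 and 4. Klf2 and Klf4 had r = 0.90 (permutation p = 0.00345, adjusted 0.0311) and rho = 0.72 (permutation p = 0.0348, adjusted 0.174), with r = 0.62 without degarelix only rats 1 and 4. Among Sox7, Erg, Fli1, Tal1 and Meox2, a group formed after the values were seen, all 10 pairs had a positive r, from 0.62 to 0.92. Erg and Klf4 ran opposite ways (r = -0.66, permutation p = 0.00279, adjusted 0.0311; rho = -0.81, permutation p = 0.00222, adjusted 0.0544; r = -0.70 without FSH rats 1 and 4).

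**Figure D4:**
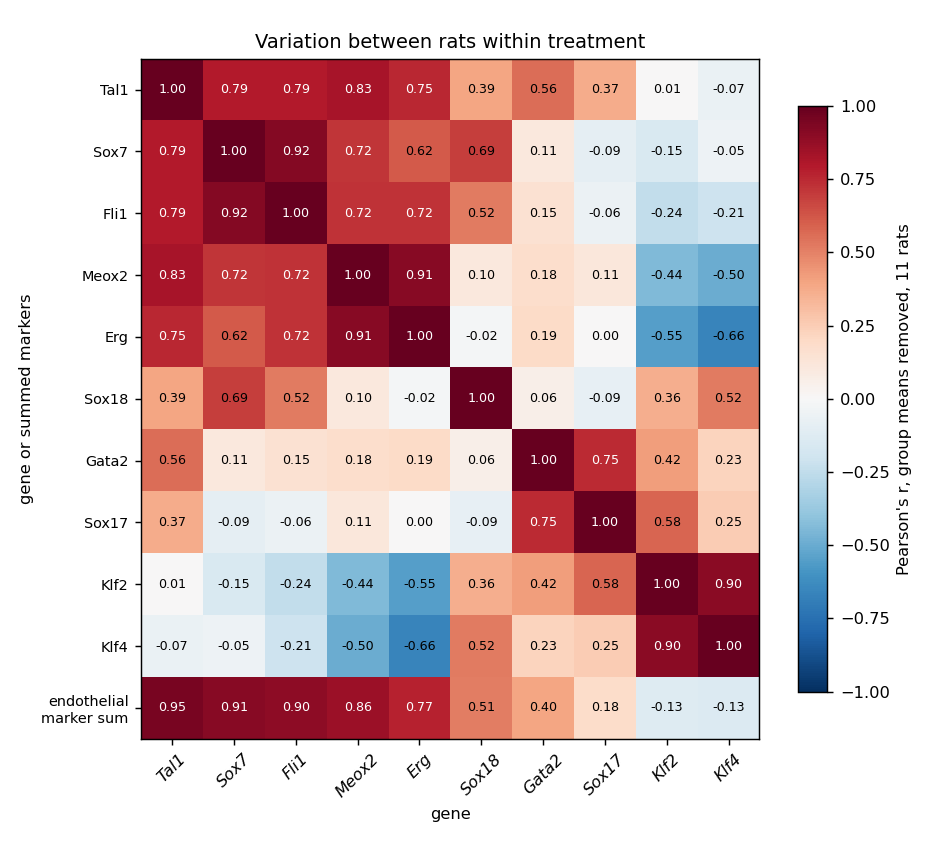
Pearson's r of group-centred log2 CPM over 11 rats for each pair of the 10 genes, with the summed endothelial markers as the bottom line, on a colour scale from -1 (blue) to 1 (red). Tal1, Sox7, Fli1, Meox2 and Erg form a block that also follows the marker sum (0.77 to 0.95), Klf2 and Klf4 pair with each other (0.90), and Sox17 is nearest to Gata2 (0.75).

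The genes most like the called members, by Pearson's r of group-centred log2 CPM over the 11 rats, were G0s2 (r = 0.90), Pnpla6 (0.89) and Tnrc6c (0.88) for Sox17. They were Pnrc1 (0.97), Nova2 (0.94) and Zfp386 (0.94) for Sox18, and Tcea2 (0.94), Slx1b (0.94) and Sfswap (0.91) for Gata2. These were the 3 highest of 11982 genes searched for each member, so a high r is partly a product of the search. Spearman's rho of the same values ran from 0.70 (Tnrc6c) to 0.95 (Slx1b and Sfswap). With FSH, Zfp386 (log2 change 0.52, edgeR adjusted p = 0.0359), Tcea2 (0.40, edgeR adjusted p = 0.0438) and Slx1b (0.32, edgeR adjusted p = 0.0443) passed as higher, and the other 6 did not pass.

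Of 25 other transcription factors of endothelium, 24 were tested, 22 with a positive and 2 with a negative log2 change (median 0.23, or 0.15 without FSH rat 1). Of the 24, 1 passed as higher and 0 as lower, near the share over all genes. That gene was Hey1, a target of Notch in arterial endothelium, at 11.1 ± 1.10 CPM with FSH and 8.13 ± 0.927 CPM without (SD, n = 5 and n = 6; log2 change 0.45, edgeR adjusted p = 0.0440). Dropping degarelix only rat 4 kept the call of Hey1, and dropping any other single library ended it (adjusted p as high as 0.110). Lmo2, the bridging protein between Tal1 and Gata factors, had a log2 change of 0.29 ± 0.07 SE (edgeR adjusted p = 0.0575).

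Among 12 partners of Tal1 and Gata2, 11 were tested, with a median log2 change of 0.06. Of the 11, 1 passed as higher and 0 as lower, where 1.21% and 1.07% of all genes did. The called gene was Zfpm1, the Gata cofactor also called Fog1, at 49.7 ± 6.61 CPM with FSH and 37.4 ± 3.67 CPM without (log2 change 0.41 ± 0.09 SE, edgeR adjusted p = 0.0454). Dropping FSH rat 4 or degarelix only rat 4 kept that call, and dropping any other single library ended it (adjusted p as high as 0.111). Degarelix only rat 6, at 43.5 CPM of Zfpm1, overlapped FSH rat 5 at 42.5 CPM.

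Of 22 genes linked to Klf2, Klf4 and flow, 18 were tested, with a median log2 change of 0.09. Of the 18, 2 passed as higher and 0 as lower, where 1.21% and 1.07% of all genes did. Nos3, the endothelial nitric oxide synthase and a Klf2 target, had 156, 129, 116, 117 and 125 CPM in FSH rats 1 to 5, against 87.6 to 112 CPM in degarelix only rats. The groups did not overlap for Nos3 (log2 change 0.43 ± 0.09 SE, edgeR adjusted p = 0.0395), and its call ended without any 1 of 8 libraries, FSH rats 1, 2, 3 or 5 or degarelix only rats 1, 3, 5 or 6 (adjusted p up to 0.0923). Slc9a3r2, a scaffold protein of the cell membrane, had a log2 change of 0.49 ± 0.11 SE (edgeR adjusted p = 0.0457). Dropping FSH rat 4 or degarelix only rat 2 kept that call, and dropping any other single library ended it (adjusted p as high as 0.112).

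Of 16 vascular genes linked to SoxF factors, 14 were tested and 0 passed in edgeR's quasi-likelihood test. At an unadjusted p below 0.05 there were 4, where 22.6% of all genes passed that mark. The median log2 change of the 14 was 0.18, with 12 positive and 2 negative. With 1 library left out it lay between 0.13 (without FSH rat 1) and 0.28 (without degarelix only rat 2). The receptors Notch4 and Notch1 came closest, with log2 changes of 0.42 ± 0.11 SE (edgeR adjusted p = 0.0632) and 0.34 ± 0.09 SE (edgeR adjusted p = 0.0698). Both passed in DESeq2 (adjusted p = 0.0100 and 0.0143), which called 1135 genes against 292 in edgeR's test. Over 21 alternatives Notch4 passed in 1 and Notch1 in 4, and their adjusted p reached 0.186 and 0.147.

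Markers of the other cells that carry these factors had no member past the threshold in edgeR's test. Mast cell markers summed to 49.6 to 85.9 CPM in FSH rats and 47.1 to 122 CPM in degarelix only rats, 4 of 9 positive, with Mcpt1 at 0 in every library and no unadjusted p below 0.05. Leukocyte markers summed to 234 to 559 CPM in FSH rats and 260 to 484 CPM in degarelix only rats, 5 of 10 positive and none below an unadjusted 0.05. Lymphatic endothelial markers summed to 38.9 to 78.0 CPM in FSH rats and 34.6 to 63.9 CPM in degarelix only rats. The lymphatic gene Reln stood at 26.0 CPM in FSH rat 3 and at most 1.26 CPM in the others, and its part in the members' values was not tested. Prox1, the defining lymphatic factor, was too low to be tested. Blood and platelet markers summed to 335 to 1228 CPM in FSH rats and 102 to 640 CPM in degarelix only rats, mostly Hbb, with 2 of 6 below an unadjusted 0.05 and Gata1 at 0 in every library. Smooth muscle and pericyte markers summed to 2263 to 2807 CPM in FSH rats and 2052 to 2523 CPM in degarelix only rats, 11 of 12 positive (median 0.18), with 1 below an unadjusted 0.05. Progenitor and fibroblast markers summed to 3913 to 5875 CPM in FSH rats and 3909 to 5536 CPM in degarelix only rats, 7 of 11 positive and none below an unadjusted 0.05. Fat cell markers summed to 42108 to 56093 CPM in FSH rats and 39438 to 49459 CPM in degarelix only rats, 6 of 11 positive and 4 below an unadjusted 0.05. Mesothelial markers, of which 3 of 9 were tested, summed to 15.1 to 26.3 CPM in FSH rats and 15.2 to 25.9 CPM in degarelix only rats, with none below an unadjusted 0.05. Mcpt1, Prox1 and Gata1 were chosen for mention after their values were seen. The part of these cells in the members' changes was not tested.

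The 2 genes of smallest p in each of these lists missed the threshold in edgeR's test. Among fat cell genes these were leptin, Lep, with a log2 change of -0.62 ± 0.18 SE (adjusted p = 0.0790), and the adipogenic receptor Pparg, with -0.38 ± 0.11 SE (adjusted p = 0.0893). Among smooth muscle and pericyte genes they were the myosin Myh11, with 0.35 ± 0.12 SE (adjusted p = 0.115), and the pericyte proteoglycan Cspg4, with -0.26 ± 0.13 SE (adjusted p = 0.253). The platelet integrin Itga2b had a log2 change of 0.47 (adjusted p = 0.192) and the globin Hbb one of 1.16 (adjusted p = 0.210). The lymphatic genes were Reln, with 3.47 (adjusted p = 0.0931) through FSH rat 3, and Lyve1, with 0.36 (adjusted p = 0.499). For mast cells they were Hdc, the histamine-forming enzyme, with -0.20, and the tryptase Tpsab1, with 0.40. For leukocytes they were Nkg7 with -0.41 and Itgam with -0.22, for progenitors F3 with 0.43 and Dpp4 with 0.41, and for mesothelium the keratins Krt19 with 1.57 and Krt8 with -0.16. The lowest adjusted p among these last 8 genes was 0.266, that of F3.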

How the data were processed

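Stranded paired-end mRNA libraries from individual rats were sequenced, and the authors deposited raw counts per Ensembl gene. The submitters' processing notes name STAR, edgeR, DESeq2 and the build rn6. Not given in the sources used here are versions, annotation and counting settings. Pcmt1 was dropped, since a letter stands in place of 1 of its counts. Groups came from the labels. From the counts, 12846 of 25275 genes passed edgeR's filterByExpr and were fitted with robust quasi-likelihood models and TMM scaling, without a replicate block (R 4.3.3, edgeR 4.0.16, limma 3.58.1, DESeq2 1.42.0), and the scripts were tested on simulated data. A second fit used the summed counts of 18 endothelial markers as library size. At a floor of 3 counts, depth allowed 0.127 to 0.223 CPM, for counting error only. The 10 genes and the lists were chosen with earlier results of these data known. Of the list entries, 174 matched by symbol, 1 by synonym (Plpp3 as Ppap2b) and 4 did not. Named besides the members were the called genes of each list (where fewer than 2, the 2 of smallest p) and the 3 genes most like each called member. Alternatives were other scalings, filters, tools, thinning, a replicate block and leaving out each library.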

Additional observations from a re-analysis of the deposited data

Results flagged for a closer look

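The Sox18 level of FSH rat 1, at 119 CPM, stood apart from the other 4 FSH rats, which had 105 to 108 CPM. Its gap to the nearest was 0.769 of the group's whole range. It was the only one among 20 groups of members' values tested, and chance gives about 1 in 20. Sox18 stayed called without FSH rat 1.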

How the results depend on the processing

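Per library total, 292 genes passed, against 1135 with DESeq2 (5 members), 635 with quality-weighted limma-voom (4 members) and 30 to 563 with 1 library left out (2 to 5 members). A replicate block, which also drops degarelix only rat 6, left 15 genes and 0 members (edgeR adjusted p = 0.0825 for Sox17, 0.0909 for Sox18, 0.140 for Gata2). The sample titles name no pairing of rats, and only 2 of 10 rats correlated best with the rat of their own number. Such correlations cannot settle whether rats of like number shared a batch. Per endothelial marker counts, 3164 genes passed, against 1052 with the markers' geometric mean, 208 with a replicate block, and 67 to 5918 with 1 library left out (0 to 1 members). Leaving out the markers past the threshold, an alternative chosen after seeing the data, gave 116 genes. The 8 pairs became 0 without the 2 farthest rats and 0 by Spearman's rho, an alternative also chosen after seeing the data. No member's log2 change per library total reversed. Of 210 such values, 193 kept their side of the threshold, 6 passed newly and 11 no longer passed. The causes were not tested.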

Other observations

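Immediate early genes, a list added after the values of Klf2 and Klf4 were seen, are quickly induced by handling of tissue as well as by other stimuli. None of those tested passed with FSH in edgeR's quasi-likelihood test. Over the 11 rats, group-centred log2 CPM of Jun had a Pearson's r of 0.79 with Klf2 and 0.78 with Klf4, and Atf3 had 0.62 and 0.67. Fos had an r of 0.03 with Klf2 and 0.08 with Klf4, and Egr1 had -0.20 and -0.28. Fosb had -0.25 and -0.19, and Junb had -0.07 and -0.09. Degarelix only rat 4, high for Klf2 and Klf4, was also the highest of its group for Jun, at 189 CPM, and Atf3, at 20.3 CPM. The same rat was the lowest of its group for Egr1, at 18.5 CPM, and Fosb, at 1.65 CPM. The part of these genes in the values of Klf2 and Klf4 was not tested.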
